A study of Mus musculus with 6 samples.

Results

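Promoters of protein-coding genes were examined in cultured mouse lung fibroblasts by Omni-ATAC-seq, an assay in which a transposase cuts and tags DNA that is not wrapped around nucleosomes. A region was taken as such a promoter where the deposited annotation placed it at a transcription start site (TSS) and gave the nearest gene as protein-coding. By that rule 923 of 2121 regions listed as more accessible on 32 kPa than on 0.2 kPa were promoters (43.5%, of 919 genes). Among 2114 regions listed as more accessible on plastic than on 0.2 kPa, 781 were promoters (36.9%, of 775 genes). The table of plastic against 32 kPa, which holds regions whether or not they differed, had 11847 promoters of 10320 genes among 64217 regions (18.4%).

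All cells, in every group, were GFP-positive primary lung fibroblasts sorted from mice that carry a Col1a1-GFP transgene. They were grown for 8 days on 0.2 kPa PDMS (a silicone gel of very low stiffness), on 32 kPa PDMS, or on tissue-culture plastic. The 3 surfaces carried the same collagen I coating, all cultures had 10% serum and 5000 cells per cm2, and no other treatment was given. Each culture had 2 libraries, 6 in all, and the labels do not say whether the 2 came from separate animals. The tables give a mean per culture and no value per library, so the depth and the spread between libraries are unknown, and the error of each difference is known only through the authors' false discovery rate (FDR).

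Active mammalian promoters carry a stretch of DNA from which nucleosomes are displaced and on which general and gene-specific transcription factors assemble. Many are rich in CpG dinucleotides and are accessible in most cell types, while promoters poor in CpG are more often open in particular cells. In fibroblasts that turn into contractile myofibroblasts, genes of the actin cytoskeleton are switched on through serum response factor (SRF), which binds a sequence called the CArG box, together with cofactors that are released from monomeric actin. Accessibility is not transcription, and in a bulk culture a higher share of cells with an open promoter cannot be told apart from a wider opening in each cell.

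Promoters from both lists are shown here because later results turn on them. Each line is the 250 bases upstream of the RefSeq start site (GRCm38.p6, the same assembly as mm10), written 5′ to 3′ on the gene's own strand. In the first pair, the contractile genes Acta2 and Myl9, capitals mark CArG boxes, on either strand, with at most 1 base of the core other than A or T. In the second pair, Serf1 and Dock1, which had the largest folds shared by both lists, capitals mark GC boxes (GGGCGG), ETS-type motifs (CCGGAAG) and CCAAT boxes (CCAAT), on either strand. They lie at chr19:34255374-34255623 on the minus strand (Acta2), chr2:156775214-156775463 on the plus strand (Myl9), chr13:100107769-100108018 on the plus strand (Serf1) and chr7:134670437-134670686 on the plus strand (Dock1).
Acta2: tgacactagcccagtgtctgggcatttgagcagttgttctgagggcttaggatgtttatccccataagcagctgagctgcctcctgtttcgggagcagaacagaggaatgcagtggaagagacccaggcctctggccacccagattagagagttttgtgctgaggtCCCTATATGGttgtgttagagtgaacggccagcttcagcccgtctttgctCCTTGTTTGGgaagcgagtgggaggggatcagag
Myl9: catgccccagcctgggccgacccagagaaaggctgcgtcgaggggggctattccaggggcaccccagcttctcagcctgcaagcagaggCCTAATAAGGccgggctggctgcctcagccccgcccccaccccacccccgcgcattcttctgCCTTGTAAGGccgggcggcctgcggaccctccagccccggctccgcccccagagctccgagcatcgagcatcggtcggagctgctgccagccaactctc
Serf1: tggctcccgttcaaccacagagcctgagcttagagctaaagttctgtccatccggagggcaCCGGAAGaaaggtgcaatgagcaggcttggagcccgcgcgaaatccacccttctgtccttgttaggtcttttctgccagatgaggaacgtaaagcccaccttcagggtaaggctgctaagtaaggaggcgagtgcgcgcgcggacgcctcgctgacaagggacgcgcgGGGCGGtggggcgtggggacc
Dock1: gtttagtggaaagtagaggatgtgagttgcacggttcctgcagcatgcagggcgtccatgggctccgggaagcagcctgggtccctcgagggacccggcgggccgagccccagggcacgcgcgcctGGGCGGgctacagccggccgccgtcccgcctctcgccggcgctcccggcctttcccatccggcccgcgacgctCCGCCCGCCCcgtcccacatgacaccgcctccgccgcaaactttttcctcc
The Acta2 window holds CArG-like sequences that start at -84 and -34 relative to the start site (negative numbers are upstream), each with 1 core base that departs from A or T. Myl9 has an exact CArG box that starts at -161 and a CArG-like sequence that starts at -99. The Serf1 and Dock1 windows are CpG-rich, with an observed-to-expected CpG ratio of 0.943 and 0.911 over the 300 bases around the start site, against 0.27 for Acta2 and 0.583 for Myl9.

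Promoters were more open than the other regions on plastic and on 32 kPa alike. A level here is the authors' mean normalised read count of a culture, on the log2 scale. The median promoter had a level of 5.30 on plastic (quartiles 4.47 and 6.11) and 5.30 on 32 kPa (quartiles 4.41 and 6.13), while other regions had medians of 4.07 on plastic and 3.99 on 32 kPa. Promoter regions were also longer, with a median of 256 bp against 165 bp, and levels are not scaled to length. The strongest promoter regions included those of Evi5l, at 9.05 on plastic and 9.08 on 32 kPa, and of Vim, which encodes the intermediate filament vimentin of mesenchymal cells, at 8.93 on plastic and 8.82 on 32 kPa. The promoter of Zyx, encoding the focal adhesion protein zyxin, stood at 8.49 on plastic and 8.71 on 32 kPa. At the other end, an endothelial receptor gene, Tek, had a promoter region at 3.02 on plastic and 0.37 on 32 kPa.

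**Figure D1:**
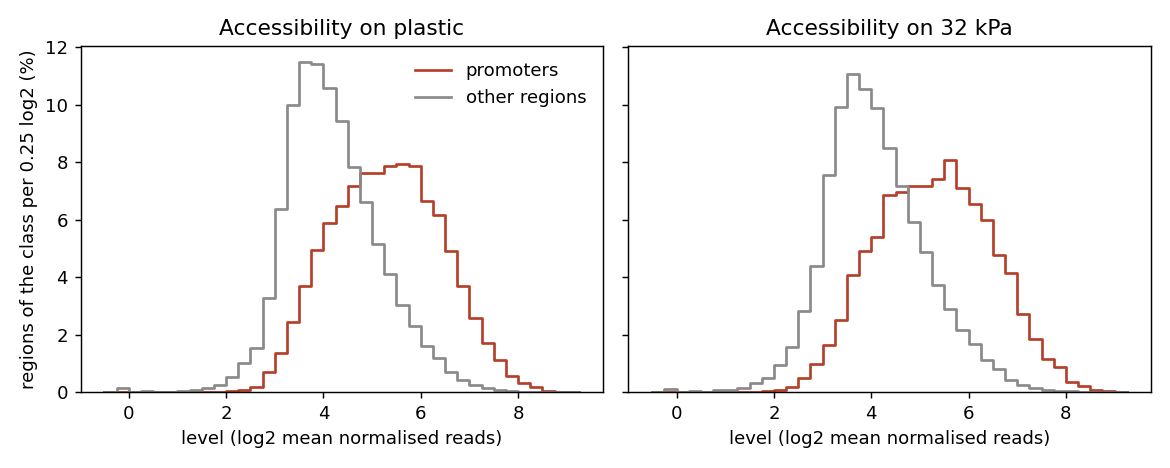
Distribution of accessibility levels (x axis, log2 mean normalised reads) of promoters and of all other regions on plastic (left) and on 32 kPa (right); the y axis gives the percent of each class per 0.25 log2. Promoters lie to the right of other regions in both cultures, with medians of 5.30 on plastic and 5.30 on 32 kPa.

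The labelled cell type was checked by the promoters of marker genes. A promoter region was present for 11 of 12 fibroblast marker genes, against 47.1% of all 21896 protein-coding genes of RefSeq. Their levels had a median of 5.13 on plastic (2.97 to 8.93) and 5.15 on 32 kPa (3.76 to 8.82), near the medians of all promoters. Col1a2 had 6.15 on plastic and 5.94 on 32 kPa, and the lowest, Thy1, 2.97 on plastic and 3.76 on 32 kPa. A promoter region was present for 3 of 15 epithelial markers, 2 of 13 endothelial markers and 1 of 12 leukocyte markers. It was also present for 3 of 12 markers of pericytes, smooth muscle and mesothelium, and Krt19 counts there and among the epithelial markers. Median levels on plastic and 32 kPa were 4.32 and 3.95 for epithelial, 3.02 and 3.08 for endothelial, and 4.73 and 4.47 for the last markers. Their highest levels on 32 kPa were 5.0, 3.13 and 5.25. The leukocyte marker, Lyz2, stood at 4.29 on plastic and 5.01 on 32 kPa. Among the pericyte, smooth muscle and mesothelial markers Myh11, a smooth muscle myosin heavy chain, was among the listed promoters on plastic.

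Listed promoters were about 2-fold more accessible on the stiffer surface, with little spread between promoters. On 32 kPa the 923 listed promoters had a median level of 6.34, against 5.25 on 0.2 kPa, and a median log2 fold of 1.08 (2.11-fold) in the authors' deposited table. The quartiles of these folds were 1.03 and 1.15, and the largest was 1.72, in the authors' deposited table. On plastic the 781 listed promoters had a median level of 6.08, against 4.96 on 0.2 kPa, and a median log2 fold of 1.08 with the same quartiles and a maximum of 1.58 in the authors' deposited table. Both lists hold only regions with a log2 fold of at least 1 and an FDR of at most 0.05, so the lower end of these folds is set by the list. The lists hold no promoter that changed by less or was lower on the stiffer surface, so such promoters could not be analysed.

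Listed promoters had smaller folds and lower FDRs than the other listed regions. On 32 kPa the other regions had a median log2 fold of 1.15, and 40.2% of them reached 1.2, against 14.7% of promoters (136 of 923), in the authors' deposited table. An FDR of at most 0.01 was given to 429 promoters (46.5%) and to 271 other regions (22.6%) in that authors' deposited table. On plastic 143 promoters (18.3%) and 500 other regions (37.5%) reached a log2 fold of 1.2, and 382 promoters (48.9%) and 310 other regions (23.3%) an FDR of at most 0.01, in the authors' deposited table. The level moved with this: other listed regions had medians of 5.73 on 32 kPa and 5.58 on plastic, below the promoters' 6.34 and 6.08. Its part in the difference was not tested.

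A region had to be strong to be listed at all, so shares were counted over the regions of the plastic against 32 kPa table that reached the lowest listed level, 4.97 on 32 kPa or 4.94 on plastic. On 32 kPa 924 of 7047 such promoters overlapped a listed region (13.1%, exact 95% binomial interval 12.3 to 13.9), against 12.5% of all 17026 such regions and 12.0% of the other regions (11.4 to 12.7). The promoters' share on 32 kPa was thus close to the background, and its interval overlapped that of the other regions. On plastic 782 of 7264 such promoters overlapped a listed region (10.8%, 10.1 to 11.5), against 11.7% of all 18002 such regions and 12.4% of the other regions (11.8 to 13.0). There the intervals of promoters and other regions did not overlap, with the promoters lower. These intervals cover counting error over regions only, and regions are not replicates of a culture.

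Within bands of equal level the shares differed with how strong the promoter was. The level that sets the band is also a term of the fold that decides listing, so share and level are not independent. Among regions between 5 and 6 on the stiffer surface, promoters were listed less often than other regions in the counts, at 8.27% against 10.9% on 32 kPa and 9.69% against 13.1% on plastic. Over all regions at 6.5 or more the order was the opposite, with 400 of 1923 promoters (20.8%) against 170 of 972 other regions (17.5%) on 32 kPa. On plastic 216 of 1801 such promoters (12.0%) and 88 of 900 other regions (9.78%) were listed. The order was not the same in each band of that range: between 7.5 and 8 on 32 kPa 45 of 240 promoters (18.8%) and 20 of 69 other regions (29.0%) were listed. The strongest promoters, at 8 or more, were listed in 19 of 81 cases on 32 kPa and in 12 of 70 cases on plastic, against 1 of 51 and 0 of 46 other regions. This class and that of 6.5 or more have no upper limit, so levels within them are not equal. Other regions reached 13.84 on 32 kPa and 13.8 on plastic, while promoters reached 9.08 and 9.05. Promoters made up 27.7% of the regions in the lowest band on 32 kPa.

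**Figure D2:**
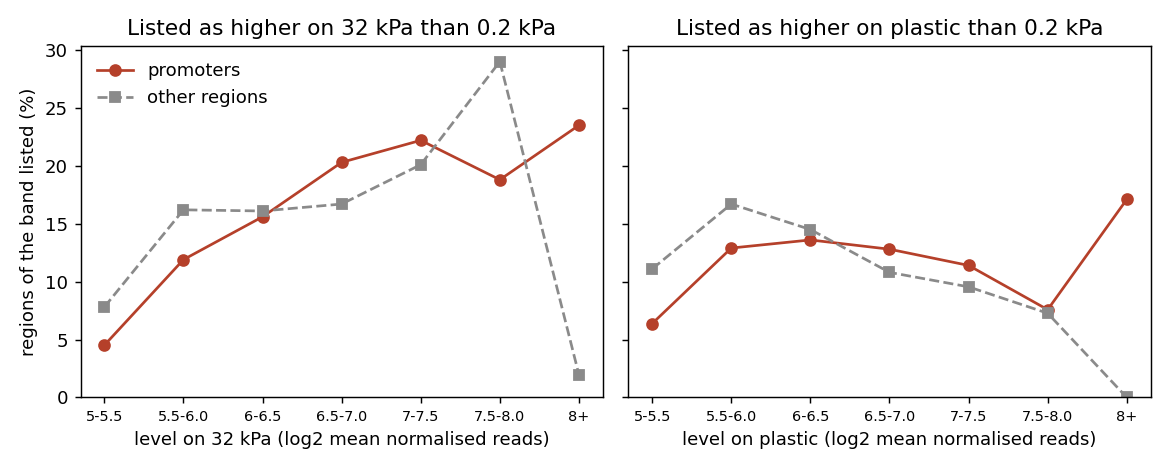
Percent of regions listed as more accessible than on 0.2 kPa (y axis) by level on the stiffer surface (x axis, bands of log2 mean normalised reads), for promoters (circles) and other regions (squares), on 32 kPa (left) and plastic (right). Promoters are below other regions in the 3 bands under 6.5, by less than 1 percentage point in the third of them, and above them between 6.5 and 7.5 on both surfaces; between 7.5 and 8 on 32 kPa they are below (18.8% against 29.0%), and the band of 8 or more holds 81 promoters and 51 other regions on 32 kPa.

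The largest folds on 32 kPa belonged to promoters of varied function. Clec2d, a C-type lectin that serves as a ligand of natural killer cell receptors, had a level of 6.22 on 32 kPa and 4.50 on 0.2 kPa, a log2 fold of 1.72 with an FDR of 0.000818 in the authors' deposited table. This region lay at -982 from the start site. Another Clec2d region, at the start site itself, was in neither list, with 5.81 on 32 kPa and 5.79 on plastic. Nsf, the ATPase that takes apart membrane fusion complexes, stood at 6.09 on 32 kPa and 4.57 on 0.2 kPa (log2 fold 1.52, FDR 0.00262 in the authors' deposited table). Pdk1, which restrains the entry of pyruvate into the mitochondrial citric acid cycle, had 6.21 on 32 kPa and 4.78 on 0.2 kPa, and Osmr, the oncostatin M receptor, 5.86 on 32 kPa and 4.44 on 0.2 kPa. The remaining promoters among the 10 largest folds were those of Scel, Agbl5, Ppp1cc, Snrpc, Ccdc124 and Serf1, with log2 folds between 1.42 and 1.49 in the authors' deposited table.

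Different promoters made up the top 10 by fold on plastic, although 7 of the 10 on 32 kPa were in the plastic list too and Serf1 had a log2 fold there equal, at 1.41, to the lowest of the 10 in the authors' deposited tables. BC051142 had a level of 5.44 on plastic and 3.85 on 0.2 kPa, a log2 fold of 1.58 with an FDR of 0.00736 in the authors' deposited table. Sh3bgr stood at 5.93 on plastic and 4.40 on 0.2 kPa (log2 fold 1.53, FDR 0.00173 in the authors' deposited table). Dnm1l, the GTPase that divides mitochondria, had the lowest FDR of these 10 promoters, 5.85e-05 in the authors' deposited table, with levels of 6.84 on plastic and 5.40 on 0.2 kPa. The others were Adgb, Kctd17, Ubxn11, Rnf169, Plac8, Oxr1 and Zfp952, with log2 folds between 1.41 and 1.54 in the authors' deposited table.

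Very strong promoters were also listed. Leprot, which shares its promoter with the leptin receptor gene, had 8.91 on 32 kPa and 7.88 on 0.2 kPa, with a log2 fold of 1.04 and an FDR of 0.000426 in the authors' deposited table. Sertad2 had the lowest FDR among promoters on 32 kPa, 0.000345 in the authors' deposited table, at levels of 8.49 on 32 kPa and 7.35 on 0.2 kPa. Xpo1, the main nuclear export receptor, stood at 8.22 on 32 kPa and 7.22 on 0.2 kPa. On plastic Zfp869 (8.35, against 7.23 on 0.2 kPa) and Ift27, a component of the transport system of cilia (8.33, against 7.18 on 0.2 kPa), both had an FDR of 7.1e-08 in the authors' deposited table.

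Promoters of contractile and actin genes were listed more often in the counts than those of all genes. Of 32 such genes with a promoter at or above the lowest listed level on 32 kPa, 10 had a listed promoter (31.2%), against 13.5% of all 6732 protein-coding genes counted the same way. On plastic 8 of 33 did (24.2%), against 11.1% of all 6916 genes. These differences from all genes were not tested, and the gene lists were chosen with earlier results of these data known. Acta2, Actn1, Myl9, Tagln, Tpm2 and Tpm3 were in both lists, Cnn3, Myh9, Pdlim5 and Smtn in that of 32 kPa, and Csrp1 and Myh11 in that of plastic. The median level of the strongest promoters of these genes was 6.09 on 32 kPa and 6.11 on plastic.

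Acta2, encoding the alpha smooth muscle actin that defines myofibroblasts, had a promoter level of 6.49 on 32 kPa and 5.37 on 0.2 kPa, a log2 fold of 1.12 with an FDR of 0.00698 in the authors' deposited table. In the plastic comparison it had 6.60 on plastic and 5.38 on 0.2 kPa (log2 fold 1.22, FDR 0.000817 in the authors' deposited table). The listed region on 32 kPa, chr19:34255198-34255703 in mm10, spans the upstream window printed above with both of its CArG-like sequences. Tagln, encoding the actin-binding protein transgelin, stood at 6.34 on 32 kPa and 5.15 on 0.2 kPa (log2 fold 1.18, FDR 0.0117 in the authors' deposited table). On plastic Tagln had 6.36, against 5.10 on 0.2 kPa, with an FDR of 0.00177 in the authors' deposited table.

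Myl9, a regulatory light chain of myosin, had 5.93 on 32 kPa and 4.83 on 0.2 kPa, and 6.18 on plastic and 4.88 on 0.2 kPa. Its log2 folds were 1.10 on 32 kPa (FDR 0.0261) and 1.31 on plastic (FDR 0.003) in the authors' deposited tables. Its listed region on 32 kPa, chr2:156775111-156775468, holds the exact CArG box shown above. Actn1, the actin cross-linker alpha-actinin, was stronger, at 7.03 on 32 kPa and 5.84 on 0.2 kPa, and at 7.04 on plastic and 5.88 on 0.2 kPa. Tropomyosin genes Tpm2 and Tpm3 had log2 folds of 1.03 and 1.13 on 32 kPa and 1.08 and 1.02 on plastic in the authors' deposited tables, and Tpm2 was close to the limit of the list on 32 kPa with an FDR of 0.0495. Myh9, the nonmuscle myosin heavy chain IIA, was the strongest of those listed on 32 kPa, at 8.18 on 32 kPa and 7.15 on 0.2 kPa.

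Other promoters of the contractile list were open and in neither list. Vim, Srf (6.78 on plastic and 6.89 on 32 kPa), Diaph1, Rock1, Tpm1 and Actb (5.52 on plastic and 5.91 on 32 kPa) were among 21 genes with a promoter at or above the lowest listed level on either surface and in neither list. None of the 50 promoter regions of the list had an unadjusted p under 0.05 between plastic and 32 kPa in the authors' deposited table.

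**Figure D3:**
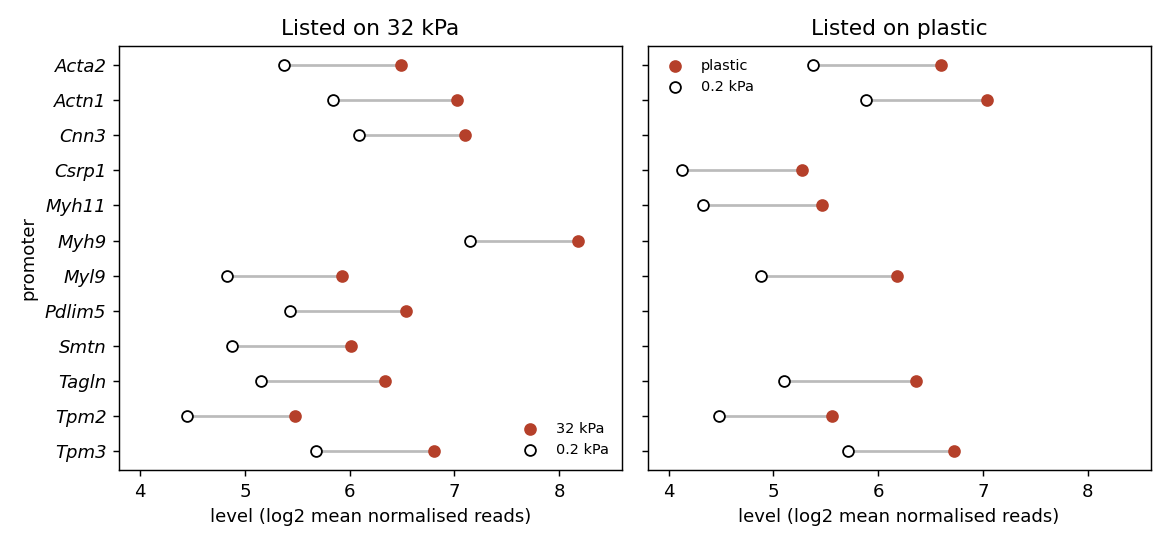
Accessibility levels (x axis, log2 mean normalised reads) of the listed promoters of contractile and actin genes on the stiffer surface (filled) and on 0.2 kPa (open), for 32 kPa (left) and plastic (right); a gene without points was not listed in that comparison. The joined points lie about 1 apart in every row, between Tpm2 at 5.48 and Myh9 at 8.18 on 32 kPa.

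Collagen, matrix and crosslinking genes had a listed promoter in 2 of 27 cases on 32 kPa (7.41%, against 13.5% of all genes) and 2 of 28 on plastic (7.14%, against 11.1%); these differences from all genes were not tested. On 32 kPa these were Lamc1, a laminin chain (6.67, against 5.54 on 0.2 kPa), and Lox, the collagen crosslinking enzyme lysyl oxidase (7.42, against 6.33 on 0.2 kPa). On plastic they were Thbs2, a thrombospondin, and Col1a1, a chain of type I collagen, at 5.61 on plastic and 4.55 on 0.2 kPa. The authors' deposited table gives this promoter a log2 fold of 1.06 and an FDR of 0.032. Col1a1 is also the gene that names the reporter used to sort the cells. The labels do not describe the construct.

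Genes of signalling pathways known from mechanical activation had small counts, with shares below the 13.5% and 11.1% of all genes. In the YAP and Hippo list, 3 of 28 genes were listed on 32 kPa (10.7%) and 2 of 27 on plastic (7.41%). The kinase genes Lats1 and Stk3, which restrain YAP, were in both: Lats1 had 5.90 on 32 kPa and 4.68 on 0.2 kPa, and 6.01 on plastic and 4.69 on 0.2 kPa. Among TGF-beta and BMP genes, 2 of 26 were listed in each comparison, Skil and Tgfbr1 on 32 kPa and Smad3 and Bmpr2 on plastic. Skil, a repressor of SMAD transcription factors, had 7.84 on 32 kPa and 6.66 on 0.2 kPa, with an FDR of 0.000751 in the authors' deposited table.

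Integrin and focal adhesion genes had 0 of 14 on 32 kPa and 1 of 15 on plastic, which was the collagen receptor chain Itga2 (5.37, against 4.23 on 0.2 kPa). Inflammatory and NF-kB genes had 0 of 13 in each comparison. Fibroblast transcription factor genes had 3 of 29 on 32 kPa (Elk1, Fosl2 and Twist1) and 1 of 29 on plastic (Foxp1). The shares of all genes were 13.5% on 32 kPa and 11.1% on plastic, at which lists of 13 to 15 genes would hold few listed ones, and no list was tested against them. Twist1 was at the lower limit of the list, with a log2 fold of 1 and an FDR of 0.017 in the authors' deposited table.

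Chromatin regulators were listed at 5 of 33 genes on 32 kPa (15.2%) and 4 of 33 on plastic (12.1%), near the shares of all genes. Ep300, the p300 acetyltransferase, and Smarca2, an ATPase of the BAF remodelling complexes, were in both. The listed Ep300 region, at -956 from the start site on 32 kPa, had 6.15 on 32 kPa and 4.88 on 0.2 kPa, and 6.12 on plastic and 4.87 on 0.2 kPa. A weaker Ep300 region at -87, with 4.49 on 32 kPa and 4.05 on plastic, was in neither list and below the lowest listed levels. Dnmt1, the maintenance DNA methyltransferase, and Kmt2b, a histone methyltransferase, were among those listed on 32 kPa, and Brd2 and Brd3 among those on plastic. In the cell cycle list Ccnd3, Ccne1 and Pcna were listed of 31 genes on 32 kPa (9.68%, against 13.5% of all genes). On plastic Ccnd2 was listed of 32 (3.12%, against 11.1%). These differences were not tested.

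Cytosolic ribosomal protein and zinc finger genes differed in the counts between the comparisons. Cytosolic ribosomal protein genes had a listed promoter in 12 of 42 cases on 32 kPa (28.6%, against 13.5% of all genes) and in 5 of 45 on plastic (11.1%, the share of all genes). Rpl28, Rpl31 and Rplp1 were in both lists, and Rpl28 had the largest fold of the group on 32 kPa, with 6.41 on 32 kPa and 5.15 on 0.2 kPa. Zinc finger genes named Zfp, many of them repressors of mobile elements, went the other way in the counts, with 15 of 205 on 32 kPa (7.32%, against 13.5% of all genes) and 31 of 215 on plastic (14.4%, against 11.1%), 8 of them in both. Oxidative phosphorylation genes had 5 of 44 on 32 kPa (11.4%) and 4 of 44 on plastic (9.09%), and proteasome genes 2 of 24 (8.33%) and 3 of 27 (11.1%). Mitochondrial ribosomal protein genes had 2 of 29 (6.9%) and 3 of 29 (10.3%). These shares were at or below the 13.5% and 11.1% of all genes. Whether any group's share differs between 32 kPa and plastic, or from that of all genes, was not tested.

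**Figure D4:**
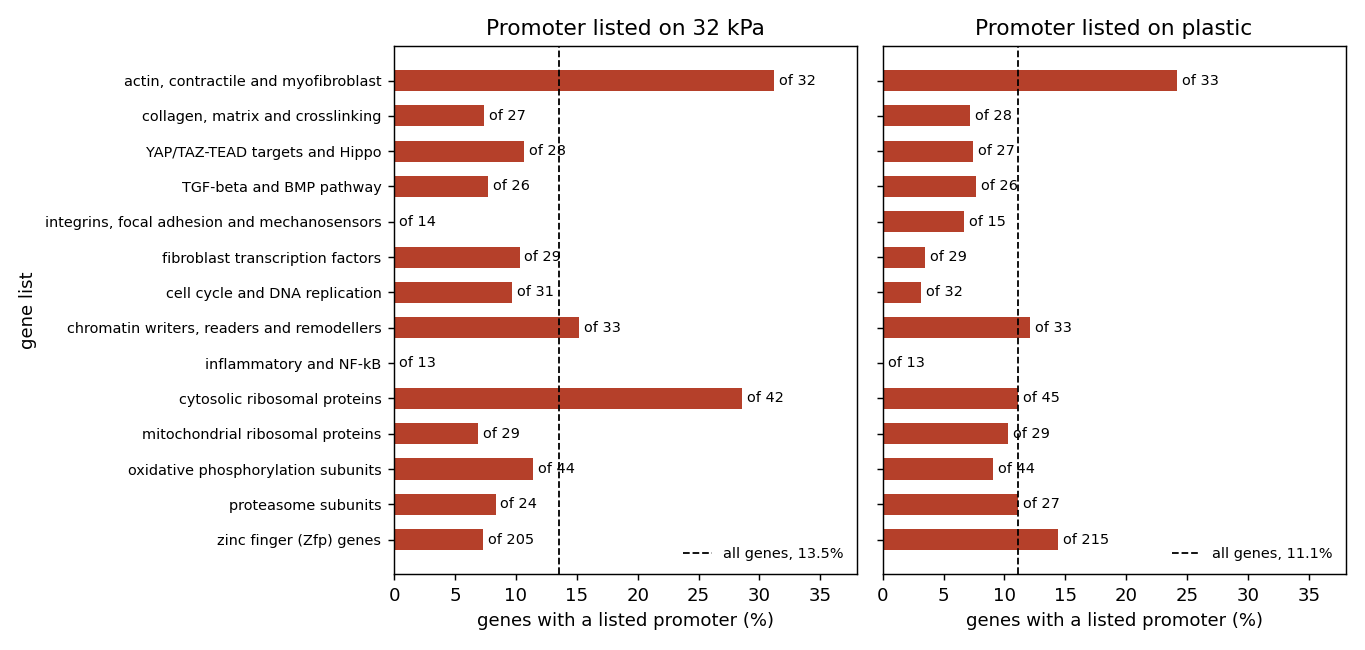
Percent of the genes of each list whose promoter was listed (x axis), for 32 kPa (left) and plastic (right); the number beside each bar is the genes with a promoter at or above the lowest listed level, and the dashed line is the share of all protein-coding genes. Contractile genes stand at 31.2% and 24.2%, and cytosolic ribosomal proteins at 28.6% and 11.1%.

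The comparisons with 0.2 kPa use the same 0.2 kPa libraries, so the lists are not independent and their overlap is given as a count only. In all, 306 promoters of 305 genes were in both lists, 33.2% of those on 32 kPa and 39.2% of those on plastic. Counted against any listed region instead of listed promoters only, 308 promoters of each list overlapped the other list. For the other regions, counted against any listed region, the shares were 31.1% of 1198 on 32 kPa and 28.0% of 1333 on plastic. No difference between promoters and other regions was tested. Serf1, a small protein that speeds the aggregation of amyloid proteins, had 5.04 on 32 kPa and 3.61 on 0.2 kPa, and 5.06 on plastic and 3.65 on 0.2 kPa. Its log2 folds were 1.42 on 32 kPa (FDR 0.0268) and 1.41 on plastic (FDR 0.0332) in the authors' deposited tables. Dock1, an activator of the small GTPase Rac that acts downstream of integrins, had 5.31 on 32 kPa and 3.94 on 0.2 kPa, and 5.53 on plastic and 4.19 on 0.2 kPa. P3h1, a collagen prolyl hydroxylase, had 5.28 on 32 kPa and 3.98 on 0.2 kPa, and 5.32 on plastic and 4.01 on 0.2 kPa. A stronger P3h1 promoter region, at chr4:119232668-119233007, was in neither list, with 5.96 on 32 kPa and 5.88 on plastic. Mob3b, Depdc1b, Snrpc, Ttll13, Zfp983, Foxred2 and Osmr complete the 10 promoters with the largest smaller fold of the 2 comparisons.

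Promoters in a single list mostly had levels above those of 0.2 kPa on the other stiff surface as well. Of 617 promoters in the list of 32 kPa alone, 614 could be matched to a level on plastic, which exceeded their 0.2 kPa level by a median of 0.86 (quartiles 0.77 and 0.94), and in 21 by less than 0.5. Of 475 in the plastic list alone, 470 had a level on 32 kPa, which exceeded the 0.2 kPa level by a median of 0.87 (quartiles 0.75 and 0.95), and in 16 by less than 0.5. The shared 0.2 kPa level enters each of these differences. At the far end were Ston1, an endocytosis adaptor, with 3.87 on 0.2 kPa, 5.10 on 32 kPa and 3.90 on plastic, and Ugcg, which makes glucosylceramide, with 5.21, 6.30 and 5.55 on the same surfaces. This Ston1 region lay at -514 from the start site, and another at -50 was in neither list. From the plastic list, the transcription factor gene Maf had 3.90 on 0.2 kPa, 4.11 on 32 kPa and 5.13 on plastic, and Nsmce3, a subunit of the SMC5/6 complex, had 4.85, 5.11 and 5.92.

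**Figure D5:**
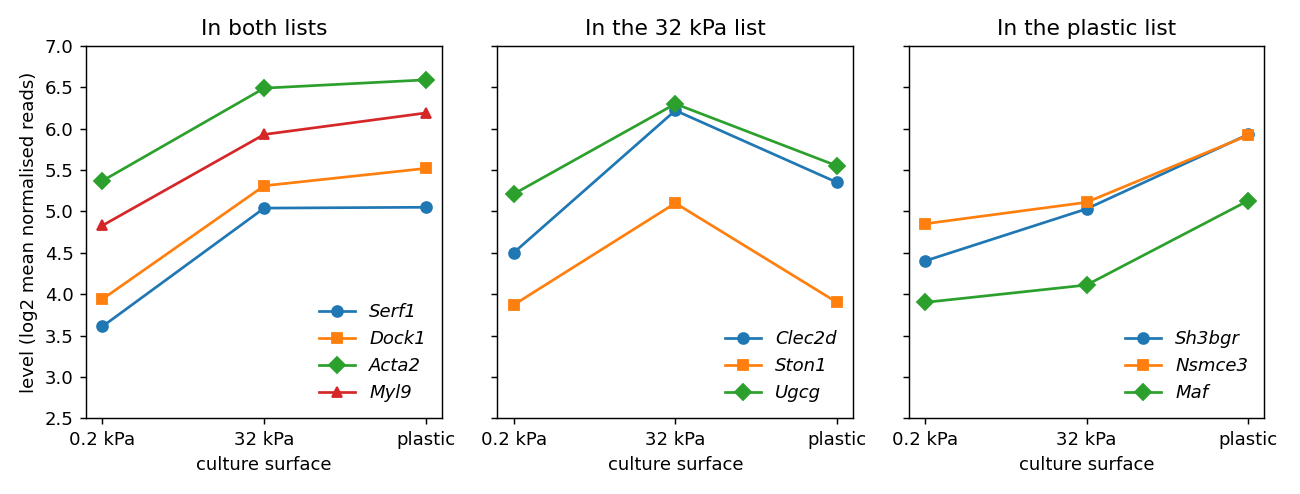
Accessibility levels (y axis, log2 mean normalised reads, 1 mean of 2 libraries per point) of named promoters on 0.2 kPa, 32 kPa and plastic (x axis). Promoters of both lists are higher on both stiff surfaces than on 0.2 kPa, while Ston1 stands at 5.10 on 32 kPa and 3.90 on plastic, and Maf at 4.11 on 32 kPa and 5.13 on plastic.

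Plastic and 32 kPa could be compared directly over all 11847 promoters. No promoter passed an FDR of 0.05, nor did any of the 64217 regions (0.0%), since every DiffBind FDR was 1 in the authors' deposited table. An unadjusted p under 0.05 was given to 35 promoters (0.295%), 13 higher and 22 lower on plastic, against 0.576% of all regions (245 higher and 125 lower on plastic), in the authors' deposited table. The log2 fold of plastic over 32 kPa had a median of -0.01 over promoters (SD 0.31 across regions) and 0.07 over other regions (SD 0.49) in the authors' deposited table. It was 1 or more in size at 107 promoters (0.903%) and at 5.53% of other regions, in the authors' deposited table. Other regions are weaker, and the part of level in this difference was not tested.

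The lowest unadjusted p among promoters was that of the Clec2d region at -982, which had the largest fold of the promoters on 32 kPa. This region had 5.35 on plastic and 6.22 on 32 kPa, a log2 fold of -0.86 with an unadjusted p of 0.0102 in the authors' deposited table. The Clec2d region at the start site had 5.79 on plastic and 5.81 on 32 kPa. Jun, an AP-1 subunit induced early by many stimuli, had 7.37 on plastic and 7.88 on 32 kPa (log2 fold -0.51, unadjusted p 0.0193 in the authors' deposited table), and was in neither list. On the higher side were Sh3bgr, at 5.92 on plastic and 5.03 on 32 kPa (unadjusted p 0.0184 in the authors' deposited table), and Cd40, a costimulatory receptor, at 3.83 on plastic and 1.80 on 32 kPa. Maf had 5.12 on plastic and 4.11 on 32 kPa. With every FDR at 1, none of these promoters is shown to differ between plastic and 32 kPa.

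Listing was also counted over the regions of genes with several promoter regions. Of the 10320 genes, 1365 had at least 2 promoter regions: 1225 had 2, 120 had 3, 18 had 4 and 2 had 5. Where at least 2 regions of a gene were high enough and 1 or more was listed, all of them were listed in 4 of 55 genes on 32 kPa and in 5 of 49 on plastic. Over all promoters of sufficient level, 13.1% were listed on 32 kPa and 10.8% on plastic. Whether regions of the same gene were listed together more or less often than these shares give was not tested. The strongest region was among the listed ones in 44 of the 55 and 36 of the 49 genes. A region in neither list has no fold against 0.2 kPa in the tables, so how much the unlisted promoters of these genes changed is not known.

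Oxr1, which protects cells from oxidative damage, had 5 promoter regions, of which the one at chr15:41447228-41447610 was in both lists, with 6.66 on plastic and 6.37 on 32 kPa. Its strongest region, at chr15:41830647-41831026 with 7.13 on plastic and 7.04 on 32 kPa, was in neither. Rnf44 had 4 regions, and the strongest (8.11 on plastic and 8.21 on 32 kPa) was the listed one in both comparisons. Smarca2 had its upstream promoter in both lists (7.88 on plastic and 7.91 on 32 kPa), and an internal one in the plastic list (6.21 on plastic and 5.76 on 32 kPa). In Cpeb1, a regulator of messenger RNA polyadenylation, both promoter regions were in both lists.

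Other listed regions of the same genes were counted under the gene of the nearest start site. On 32 kPa 65 of the 919 genes with a listed promoter had one (7.07%), against 337 of 5838 genes with a promoter of sufficient level that was not listed (5.77%). On plastic the counts were 57 of 775 (7.35%) against 346 of 6159 (5.62%). Leaving out regions within 500 bp of the start site gave 6.75% against 5.58% on 32 kPa and 6.97% against 5.41% on plastic, and the differences were not tested. Myh9 had such a region at -40866 from its start site, at 6.44 on 32 kPa and 5.37 on 0.2 kPa. Col1a1 had one at -2456, at 6.11 on plastic and 5.07 on 0.2 kPa. Osmr had one within an intron in both comparisons, at 5.79 on 32 kPa and 4.59 on 0.2 kPa, and at 6.25 on plastic and 4.62 on 0.2 kPa.

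Base composition was read for the 8349 of 11847 promoters (70.5%) that overlapped the RefSeq window of their own gene, from 250 bases before to 50 after the start site. Levels were lowest where CpG was scarce: promoters with an observed-to-expected CpG ratio under 0.2 had a median of 4.59 on plastic and 4.62 on 32 kPa, and those between 0.8 and 1.0 had 5.61 on plastic and 5.62 on 32 kPa. On 32 kPa the median ratio was 0.833 for listed promoters and 0.808 for unlisted ones of sufficient level. On plastic it was 0.785 for listed and 0.813 for unlisted promoters. From the lowest to the highest band of CpG ratio the listed share on 32 kPa was 6.45%, 10.1%, 11.8%, 12.2%, 13.8% and 15.4%, and on plastic 11.9%, 14.8%, 10.9%, 11.8%, 9.27% and 9.99%. The lowest band holds 62 and 59 promoters of sufficient level, and no difference between bands was tested.

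Motifs were counted by exact letters on both strands of the same windows. The ETS-type motif CCGGAAG stood in 26.2% of listed and 20.7% of unlisted promoters on 32 kPa, in 23.7% and 20.9% on plastic, and in 8.86% of all RefSeq windows. The cyclic AMP response core TGACGT was in 16.5% of listed and 13.2% of unlisted promoters on 32 kPa, in 83 of 591 listed and 13.5% of unlisted promoters on plastic, and in 7.51% of all windows. The AP-1 motif TGANTCA was in 2.68% of listed and 4.4% of unlisted promoters on 32 kPa, in 2.88% and 4.36% on plastic, and in 7.81% of all windows. Median levels on 32 kPa were 5.62 with and 5.4 without the ETS-type motif, 5.6 and 5.43 for TGACGT, and 5.16 and 5.48 for AP-1. Listed promoters were also stronger than unlisted ones of sufficient level, with medians of 6.33 and 5.9 on 32 kPa and 6.08 and 5.88 on plastic. No motif difference between listed and unlisted promoters was tested, nor the part of level in it. On 32 kPa GC boxes were in 76.1% of listed and 75.7% of unlisted promoters, and CCAAT boxes in 46.2% and 45.9%. The TEAD-type motif GGAATG was in 10.6% and 11.2%, and each of these differed by less than 1 percentage point. On plastic the shares were 74.3% and 75.9% for GC boxes, 48.4% and 45.7% for CCAAT boxes, and 11.2% and 10.9% for GGAATG. Of all windows, 35.7%, 37.4% and 14.7% held these motifs. The E-box CACGTG was in 7.11% of listed and 10.7% of unlisted promoters on plastic. On 32 kPa its order was the opposite, with 11.1% of listed promoters. The RUNX-type motif TGTGGT was in 13.4% and 10.4% on plastic, and in 12.3% and 10.8% on 32 kPa. TATAAA was in 4.23% and 4.99% on plastic, and in 3.66% and 5.47% on 32 kPa.

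The exact CArG box was in 1.13% of listed and 1.47% of unlisted promoters on 32 kPa, in 1.52% and 1.45% on plastic, and in 1.63% of all windows. Allowing 1 core base other than A or T, a count added after the sequences were seen, gave 8.59% and 8.12% on 32 kPa, 9.98% and 8.16% on plastic, and 9.98% of all windows. Of the listed contractile genes, 10 matched a window, and Acta2, Myl9 and Tpm3 held a CArG-like sequence in it. Myl9 and Creld1 were the promoters in both lists with an exact CArG box. A second start site of another gene, on the opposite strand within 1000 bases upstream, was present at 142 of 710 listed promoters on 32 kPa, at 16.4% of unlisted ones, and at 15.1% of listed and 16.9% of unlisted promoters on plastic. These are descriptions of letters in a window, and no binding was measured.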

How the data were processed

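Per the submitters' processing notes, reads were processed with BWA, Picard, MACS2 and DiffBind on mm10; versions, settings and any transposase shift are not given in the sources used here. The deposited headers name a Conc column per culture, which was read here as log2 mean normalised reads. The folds equal the difference between the levels of the cultures compared, and the authors' p-value and FDR columns come with them. Annotations and signed distances to the start site (negative upstream) are the deposited ones. In the tables with 0.2 kPa the sides are named Control and Treat. Control was read as the stiffer culture because its levels equal those of 32 kPa at 643 shared intervals (difference 0.0) and lie within 0.02 of those of plastic at 653. Every column was of these cultures (0 of other studies), and 1 header line repeated within a table was removed. The gene names of 18 promoters had turned into dates; these genes were kept apart by gene ID and are not named.

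No test of significance was run here: values per library are not in the tables used, and the authors' FDR of at most 0.05 is the test of each difference. Regions were matched between tables by an overlap of at least 1 bp, a search tested on simulated data. Shares carry exact (Clopper-Pearson) 95% intervals, which cover counting error only. Named promoters were the 10 largest folds, the 10 highest levels and 10 lowest FDRs of each list, the listed promoters of 20 gene lists, the 10 largest smaller folds of both lists, the 10 lowest p in each direction and the 10 highest and lowest levels between plastic and 32 kPa, and genes with 2 listed promoters; the text gives a part of these (some items are not reported here), and members outside the rule (the third culture, several promoters per gene, second regions) were chosen after their values were seen. The promoters, lists and motifs were chosen with earlier results of these data known. Sequences are RefSeq's, build GRCm38.p6. Computing was done in Python (3.11.15) with numpy (2.4.6), scipy (1.17.1) and pandas (2.3.3), and plots with matplotlib (3.10.9).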

Additional observations from a re-analysis of the deposited data

How the results depend on the processing

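Of the 12 values that moved, most follow from the definition of the list. With an FDR of at most 0.01 the promoters higher on 32 kPa numbered 429 and those on plastic 382, and the shares listed were 6.06% and 5.26%. With a log2 fold of at least 1.2 there were 136 on 32 kPa and 143 on plastic. Without a filter on level the share of promoters listed was 7.82% on 32 kPa and 6.62% on plastic, and at or above the median listed level it was 18.4% and 12.8%. Allowing 1 other base in the core of the CArG box, an alternative chosen after seeing the data, gave 8.59% of listed promoters on 32 kPa and 9.98% on plastic. Counting by distance to the start site, by 1 region per gene, with any gene type or with an overlap of 50% of both lengths moved no count by over 1.5 times and no share out of its interval. The counts called between plastic and 32 kPa stayed at 0 under every setting run, since all FDRs are 1; 35 promoters have an unadjusted p under 0.05. The median promoter level, 5.3 as reported on both surfaces, lay between 5.22 and 5.53 on 32 kPa and between 5.24 and 5.52 on plastic. The median fold between plastic and 32 kPa lay between -0.02 and -0.01. The limit set for these medians was 1 SD across promoters, which is wide for a median, so staying within it says little. No paired analysis was possible because the tables hold 1 mean per culture and no value per library, and for the same reason no library could be left out. Depth per library is unknown, which limits every level.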
